A study of Mus musculus with 17 samples.

Results

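The genes described here are the adult globin chains and a set of erythroid heme genes: Hba-a1, Hba-a2, Hbb-bs, Hbb-bt, Alas2, Alas1, Fech, Bpgm and Slc25a37. They were taken by symbol from the gene table, and all 9 were found among the 22558 genes used. Whole-kidney RNA was sequenced from 17 male mice in 3 groups, with 1 library per mouse. Ctrl were 5 wild-type C57BL/6 mice. Case were 6 mice of the strain BKS.Cg-Dock7m +/+ Leprdb/J, called db/db, whose leptin receptor is defective and which become obese and diabetic. Dapa were 6 mice of the same db/db strain that were given dapagliflozin, an inhibitor of the kidney glucose transporter SGLT2, by gavage at 1.0 mg/kg per day. Treatment began at 8 weeks of age and lasted 6 weeks, and the Ctrl and Case mice received saline in the same volume. The Ctrl mice differ from the db/db mice in strain background as well as in the leptin receptor, so genotype, diabetes and strain cannot be told apart in any comparison with Ctrl. The sources used here describe no flushing of blood from the kidneys taken for RNA, and the blood content of each kidney was not measured.

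Hemoglobin is built from alpha chains and beta chains, each of which holds a heme group, and it is made in large amounts by red cell precursors. The young red cells that enter the blood, the reticulocytes, have lost their nucleus but still carry globin mRNA, so blood left in an organ brings globin RNA with it. Heme is made in a chain of enzymes that begins with 5-aminolevulinate synthase in the mitochondrion and ends with ferrochelatase (Fech), which inserts the iron. Alas2 is the form of the first enzyme that red cell precursors use, whereas Alas1 serves all other cells and is well expressed in the kidney. Slc25a37, or mitoferrin-1, brings iron into the mitochondria of red cell precursors, and Bpgm makes 2,3-bisphosphoglycerate, the small molecule that lowers the oxygen affinity of hemoglobin.

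Sequence upstream of the genes was read to show what the members that rose share at the level of DNA, beside 1 member that did not. RefSeq start sites on GRCm38.p6 were given for 7 of the 9 members, and the 250 bases before them are shown for 5 members, 5' to 3' on the strand of the gene. Capitals mark GATAA, the core of the site for GATA factors such as the erythroid GATA1, and CACCC, the core of the site for Klf1 and its relatives, on either strand, so that TTATC and GGGTG are the same words on the opposite strand. The windows lie at chr11:32283422-32283671 (Hba-a1, plus strand), chr7:103827929-103828178 (Hbb-bs, minus strand), chr7:103813924-103814173 (Hbb-bt, minus strand), chrX:150547167-150547416 (Alas2, plus strand) and chr6:34476106-34476355 (Bpgm, plus strand).
Hba-a1: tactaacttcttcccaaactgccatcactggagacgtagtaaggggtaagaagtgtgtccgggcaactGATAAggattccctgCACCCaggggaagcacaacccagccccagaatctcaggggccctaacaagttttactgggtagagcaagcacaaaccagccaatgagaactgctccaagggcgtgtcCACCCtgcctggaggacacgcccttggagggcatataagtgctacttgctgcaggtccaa
Hbb-bs: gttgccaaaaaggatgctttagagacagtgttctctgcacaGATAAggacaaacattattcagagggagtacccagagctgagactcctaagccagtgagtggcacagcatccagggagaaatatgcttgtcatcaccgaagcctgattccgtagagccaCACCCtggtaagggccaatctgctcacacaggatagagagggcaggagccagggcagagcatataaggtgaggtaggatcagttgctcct
Hbb-bt: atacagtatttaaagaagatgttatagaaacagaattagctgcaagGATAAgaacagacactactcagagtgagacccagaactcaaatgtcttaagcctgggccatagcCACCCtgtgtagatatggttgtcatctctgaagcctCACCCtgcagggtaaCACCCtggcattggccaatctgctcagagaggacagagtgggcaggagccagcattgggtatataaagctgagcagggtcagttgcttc
Alas2: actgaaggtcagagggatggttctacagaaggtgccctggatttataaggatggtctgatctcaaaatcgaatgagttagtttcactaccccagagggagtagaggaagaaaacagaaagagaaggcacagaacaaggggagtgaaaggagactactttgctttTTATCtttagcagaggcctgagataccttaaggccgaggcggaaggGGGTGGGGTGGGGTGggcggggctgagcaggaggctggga
Bpgm: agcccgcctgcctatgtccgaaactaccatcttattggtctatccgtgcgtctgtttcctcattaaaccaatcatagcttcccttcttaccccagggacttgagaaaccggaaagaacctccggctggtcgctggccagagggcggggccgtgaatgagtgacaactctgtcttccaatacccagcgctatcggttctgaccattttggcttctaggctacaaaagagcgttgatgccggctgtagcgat
GATAA stood 1 time in each of the windows of Hba-a1, Hbb-bs, Hbb-bt and Alas2, and CACCC stood 2, 1, 3 and 3 times. The window of Hba-a2 at chr11:32296242-32296491 is the same sequence as that of Hba-a1 but for a shift of 3 bases, and it held both words as well. The window of Bpgm held neither word. Both windows of Alas1, which has 2 start sites, held 1 CACCC and no GATAA. Of 32851 promoter windows of the same length, 22.6% held GATAA, 52.0% held CACCC and 10.1% held both. A word in a window is a description of its letters and not a measured binding site.

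The libraries held 13039535 to 17779635 counts. Mitochondrial genes took 17.9% to 20.4% of them in Ctrl, 19.8% to 27.3% in Case and 19.7% to 27.6% in Dapa, and the part of this share in the results was not tested. Expression is given in FPKM, fragments per kilobase of gene scaled to the library total, as deposited. A list of 7 kidney genes, among them Umod, Slc34a1, Lrp2, Aqp2, Slc12a1 and Slc12a3, summed to 2094 to 3829 FPKM in every mouse, so the libraries carry the markers of the labelled tissue. Of these 7, Aqp2 was higher and Lrp2 lower in Case than in Ctrl, and 2 were higher and 2 lower in Dapa. In 7 libraries (Ctrl 1, 3 and 4, Case 1, and Dapa 10, 11 and 12) the FPKM of 3 genes outside the members did not match their counts, and whether these form a batch was not tested. They are spread unevenly over the groups. Fits with and without these 7 libraries were run for the fold changes of the members, and none for the ratios, the correlations, the other gene lists or the marker sums.

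The globin genes were several times higher in the kidneys of db/db mice than in those of Ctrl mice, and the spread among db/db mice was wide. Summed over the 4 globin genes, the Ctrl libraries held 24.1 to 89.4 globin CPM (counts scaled to a common library total, median 56.0), the Case libraries 74.0 to 551 (median 206) and the Dapa libraries 139 to 449 (median 313). The Case group therefore spanned a range that the Ctrl group met at its lower end, with 74.0 in Case 1 and 81.1 in Case 2, whereas every Dapa mouse lay above all Ctrl mice. In bulk RNA more cells of a type and more RNA per cell cannot be told apart, so these values do not say whether there were more red cells in the tissue or more globin RNA in each.

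Hba-a1 (chr11:32283511-32284465 in the deposited mm10 table), which encodes the alpha chain, was at 8.93, 12.1, 3.60, 12.7 and 8.78 FPKM in Ctrl mice 1 to 5. It ranged from 11.8 to 85.5 FPKM in Case (median 32.1) and from 25.4 to 78.8 FPKM in Dapa (median 51.1). Its 4 highest Case mice and all 6 Dapa mice were above every Ctrl mouse, and Case 1 and Case 2 overlapped with Ctrl. The second alpha gene Hba-a2 (chr11:32296489-32297298) was at 5.35, 9.31, 2.39, 8.98 and 5.99 FPKM in Ctrl. It spanned 7.51 to 55.1 FPKM in Case (median 22.2) and 14.9 to 57.7 FPKM in Dapa (median 33.2). The groups overlapped in the same way as for Hba-a1.

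Hbb-bs (chr7:103826534-103828096), an adult beta chain gene, had the most counts of the 4 globin genes in every mouse and was at 18.9, 31.3, 8.73, 27.1 and 18.5 FPKM in Ctrl. In Case it lay between 25.9 and 187 FPKM (median 68.2), and in Dapa between 44.7 and 141 FPKM (median 105). Hbb-bt (chr7:103812524-103813996), its neighbour, was at 9.99, 15.5, 3.14, 13.2 and 7.76 FPKM in Ctrl, 8.70 to 94.5 FPKM in Case (median 32.9) and 21.9 to 70.7 FPKM in Dapa (median 46.6). Ctrl 3 was the lowest and Case 3 the highest of all 17 mice for both beta genes and for Hba-a1.

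**Figure D1:**
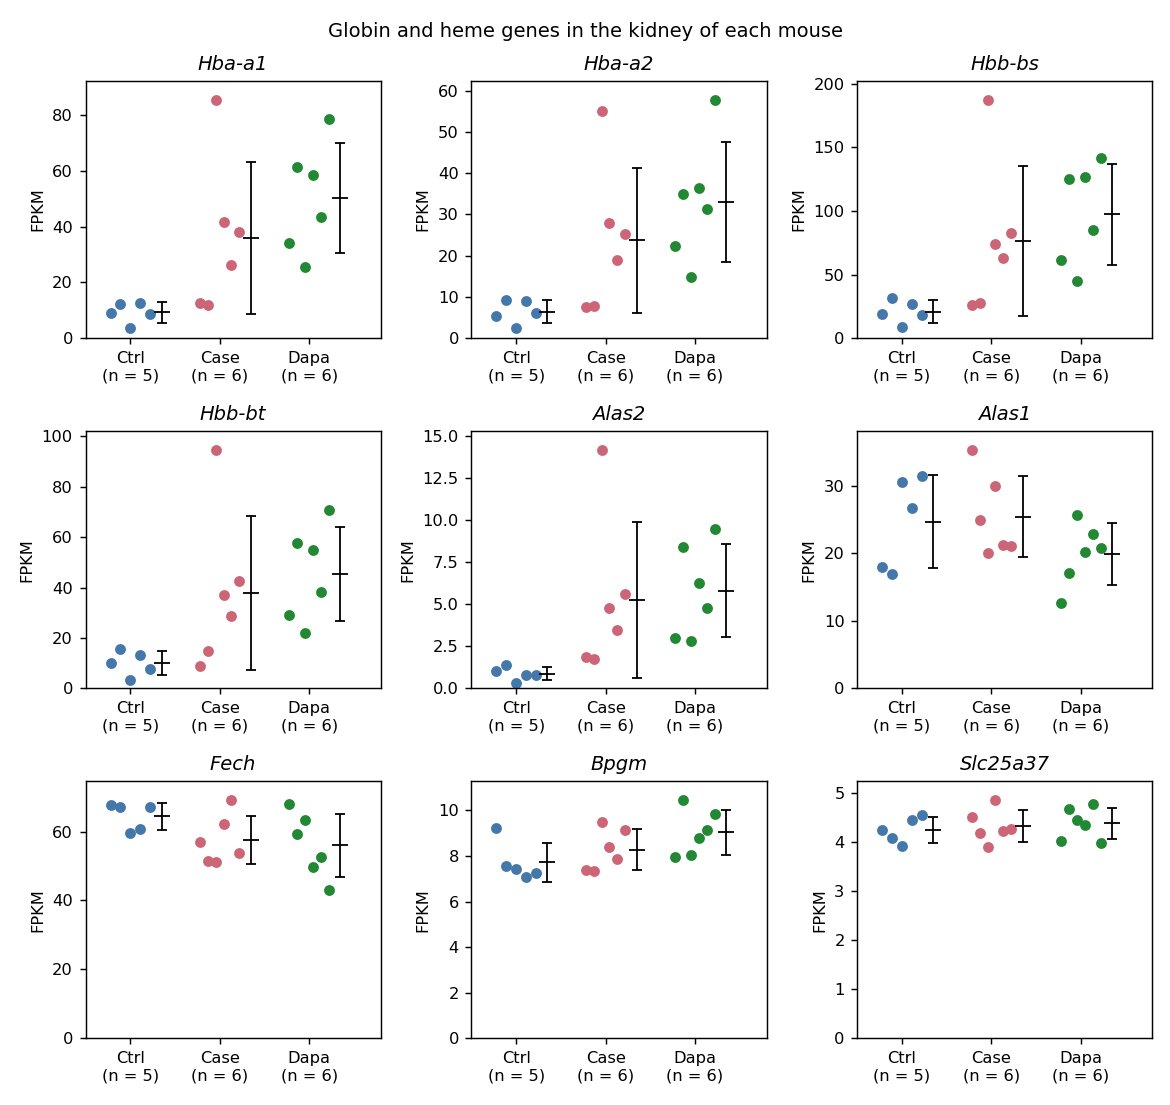
FPKM of each of the 9 members in every mouse, 1 panel per gene, with Ctrl, Case and Dapa side by side on linear axes that start at 0 (points are mice, black ticks are means with SD, cut at 0). The 4 globin genes and Alas2 are low in all 5 Ctrl mice and spread widely in both db/db groups, with Case 3 at the top of Hbb-bs at 187 FPKM, whereas Alas1, Fech, Bpgm and Slc25a37 overlap between the groups.

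In Case compared with Ctrl, 5 of the 9 members passed the test (edgeR's quasi-likelihood test, q under 0.05 over all genes tested), and all 5 were higher. Of the 14582 genes tested, 13.0% passed, 6.09% in the higher and 6.91% in the lower direction. All 5 also had an FPKM fold above 2 between group means, which 2.33% of the tested genes had together with a q under 0.05 in the higher direction. The log2 fold change was 1.87 for Hba-a1 (SE 0.48, q = 0.0245), 1.81 for Hba-a2 (SE 0.49, q = 0.0314), 1.78 for Hbb-bs (SE 0.47, q = 0.0282) and 1.84 for Hbb-bt (SE 0.54, q = 0.0415). The mean FPKM rose from 9.23 ± 3.63 (SD, n = 5) to 36.0 ± 27.3 (SD, n = 6) for Hba-a1 and from 20.9 ± 8.73 to 76.6 ± 59.0 for Hbb-bs. The median log2 fold change of the 9 members was 1.78, and that of all tested genes was 0.03. The former is the value of Hbb-bs, and the members that did not pass lay well below it. Of the 7 members with a promoter window, the 5 that passed are those whose windows held both GATAA and CACCC, and Alas1 and Bpgm are the other two, which is given as a description.

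The calls of the globin genes in Case depended on which libraries entered. Without Ctrl 1, Ctrl 3 or Ctrl 5 none of the 4 globin genes passed and Alas2 alone stayed called, while the log2 fold change of Hba-a1 was 1.88, 1.67 and 1.83 (q = 0.0560, 0.0604 and 0.0605). Without Case 3, which had the most globin RNA, the log2 fold change of Hba-a1 was 1.44 (q = 0.0386) and 3 members passed, Hba-a1, Hbb-bs and Alas2. The same 3 passed without Case 4 or without Case 6, and without Ctrl 2 or Ctrl 4 the call of Hbb-bt was lost. With a term for the 7 libraries in the fit, no member passed, at log2 fold changes of 1.24 to 1.44 for the globin genes and 2.01 for Alas2 (q = 0.0549). In the 10 matching libraries alone, 2 Ctrl and 5 Case mice, the log2 fold change of Hba-a1 was 1.86 (q = 0.186). In the other 7, with a lone Case mouse (Case 1) that is assumed to vary like the other mice, it was 0.51 (q = 0.719), and Hbb-bt changed direction (-0.10, q = 0.965).

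Alas2 (chrX:150547375-150570638), the erythroid form of 5-aminolevulinate synthase, had the largest fold of the members, and neither db/db group overlapped with Ctrl. It was at 1.00, 1.37, 0.317, 0.777 and 0.814 FPKM in Ctrl, at 1.72 to 14.2 FPKM in Case (median 4.12) and at 2.83 to 9.48 FPKM in Dapa (median 5.53). These levels rest on 17 to 72 counts in the Ctrl mice, 83 to 739 in Case and 141 to 434 in Dapa. All 6 Case and all 6 Dapa mice were above every Ctrl mouse, Case 1 and Case 2 included. The log2 fold change was 2.52 in Case (SE 0.54, q = 0.0112), and the mean FPKM was 6.15 times that of Ctrl. It stayed called with any 1 mouse left out, and without Case 3, the highest mouse, the log2 fold change was 1.96 (q = 0.0117) and the mean FPKM 4.07 times that of Ctrl. It missed the threshold with the term for the 7 libraries and in the 10 matching libraries alone (2.34, q = 0.161).

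The housekeeping form Alas1 (chr9:106233455-106248126) did not pass in Case. It was at 17.9, 16.8, 30.5, 26.6 and 31.4 FPKM in Ctrl, 20.1 to 35.2 FPKM in Case (median 23.1) and 12.6 to 25.7 FPKM in Dapa (median 20.4). The log2 fold change in Case was -0.03 (SE 0.19, q = 0.940), and the groups overlapped. In CPM per kilobase of the longest transcript, a scale on which levels of different genes can be set side by side, Alas1 was at 49.2 ± 13.8 in Ctrl and Alas2 at 1.34 ± 0.601. In Case the values were 50.8 ± 12.1 and 8.27 ± 7.26, and in Dapa 39.6 ± 9.15 and 9.10 ± 4.35. On this scale Alas2 made up 0.809% to 6.02% of the sum of both synthases in Ctrl, 4.00% to 35.7% in Case and 7.96% to 28.0% in Dapa. These shares are given as a description, with no test.

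Fech, Bpgm and Slc25a37 carried no call in Case compared with Ctrl. Fech, which ends heme synthesis in every cell type, lies on chromosome 18 and was at 67.6, 67.1, 59.7, 60.7 and 67.2 FPKM in Ctrl. It ranged from 51.1 to 69.0 FPKM in Case (median 55.4) and from 43.2 to 67.8 FPKM in Dapa (median 56.0). In each db/db group 4 of 6 mice were below every Ctrl mouse, and the log2 fold change in Case was -0.25 (SE 0.10, q = 0.129). Without Case 5, the highest Case mouse, Fech passed in the lower direction (-0.32, q = 0.0428).

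Bpgm (chr6:34476207-34505613) was at 9.24, 7.56, 7.42, 7.09 and 7.28 FPKM in Ctrl, 7.33 to 9.50 FPKM in Case (median 8.14) and 7.95 to 10.4 FPKM in Dapa (median 8.97). Its log2 fold change in Case was 0.02 (SE 0.11, q = 0.934), with Ctrl 1 apart from the other Ctrl mice. Slc25a37 (chr14:69241848-69285112) varied least of the members from mouse to mouse, at 4.25, 4.08, 3.92, 4.45 and 4.56 FPKM in Ctrl, 3.90 to 4.85 FPKM in Case (median 4.25) and 3.99 to 4.78 FPKM in Dapa (median 4.41). The log2 fold change of Slc25a37 in Case was -0.05 (SE 0.08, q = 0.723). Its highest and lowest mouse of all 17, Case 4 and Case 3, belonged to the same group.

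The levels per kilobase of longest transcript set the members in order. In Ctrl mice Hbb-bs (57.7 ± 24.1) and Alas1 (49.2 ± 13.8) were highest, and their spreads overlapped. Fech (28.5 ± 1.72), Bpgm (20.4 ± 2.31), Hba-a1 (15.8 ± 6.19), Hba-a2 (12.1 ± 5.39), Hbb-bt (9.92 ± 4.82) and Slc25a37 (8.76 ± 0.534) followed, and from Bpgm down to Slc25a37 no neighbours in this order differed beyond their SD. Alas2 (1.34 ± 0.601) was lowest. In Case mice Hbb-bs (212 ± 163) stood first, followed by Hba-a1 (61.4 ± 46.5) and Alas1 (50.8 ± 12.1), which did not differ beyond their SD. Without Case 3 Alas1 (52.9) was above Hba-a1 (44.5). The Case mean of Alas2 (8.27 ± 7.26) was near that of Slc25a37 (8.91 ± 0.664), but it was 5.47 without Case 3, and in 5 of 6 Case mice Alas2 was below Slc25a37.

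**Figure D2:**
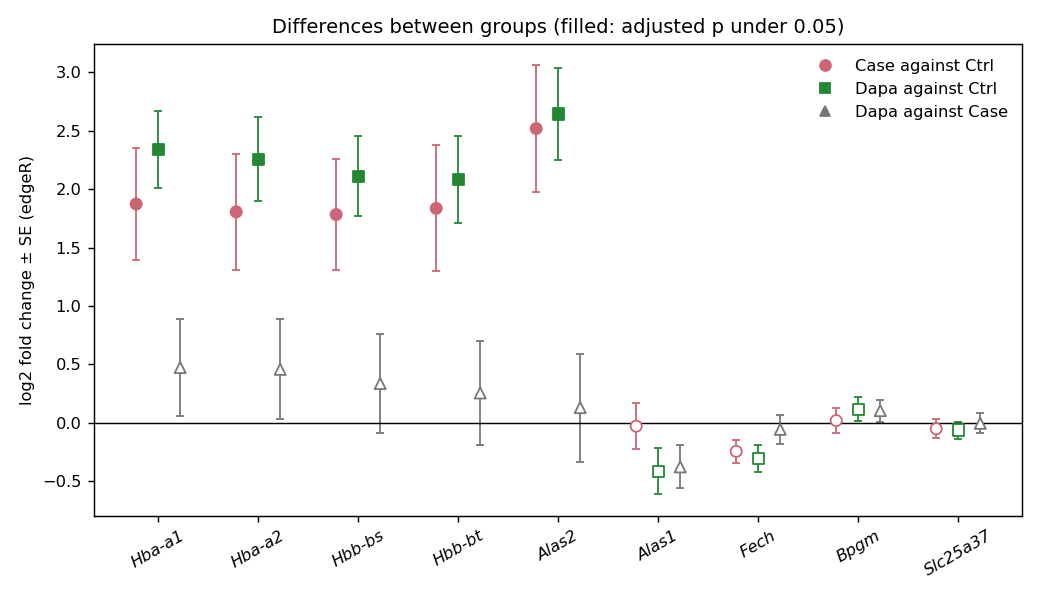
Log2 fold change of each member with its standard error in the 3 comparisons (vertical axis in log2 units, 0 is no change, filled points are called at q under 0.05). The 4 globin genes and Alas2 lie between 1.78 and 2.64 in both comparisons with Ctrl, and no member is called in Dapa compared with Case.

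Dapa compared with Ctrl shares the Ctrl mice with the comparison above, so its values are set beside those of Case and not counted as a repeat. The same 5 members passed, all higher, against 29.1% of the 14647 genes tested, 14.2% higher and 14.9% lower. The FPKM fold above 2 was met by all 5, and 5.05% of tested genes had it together with a q under 0.05 in the higher direction. The log2 fold change was 2.34 for Hba-a1 (SE 0.33, q = 0.000557), 2.26 for Hba-a2 (SE 0.36, q = 0.00102), 2.11 for Hbb-bs (SE 0.34, q = 0.00116), 2.08 for Hbb-bt (SE 0.37, q = 0.00185) and 2.64 for Alas2 (SE 0.39, q = 0.000689). All 6 Dapa mice were above all 5 Ctrl mice for each of these genes. The mean FPKM was 5.45 times that of Ctrl for Hba-a1, 4.66 times for Hbb-bs and 6.77 times for Alas2. Alas1 (-0.41, q = 0.130), Fech (-0.31, q = 0.0596), Bpgm (0.12, q = 0.418) and Slc25a37 (-0.06, q = 0.549) did not pass. All 5 calls held with any 1 mouse left out and with the term for the 7 libraries, and Fech passed as well, lower, with that term (-0.35, q = 0.0150), without Dapa 7 or Dapa 9 (-0.36, q = 0.0283, and -0.35, q = 0.0415), in DESeq2 (-0.30, q = 0.0469) and in the 7 libraries alone (-0.50, q = 0.0233). In the 10 matching libraries alone, 2 Ctrl and 3 Dapa mice, no member passed (Hba-a1 1.86, q = 0.0578, Alas2 2.03, q = 0.109).

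Whether dapagliflozin changed these genes within db/db mice was read from Dapa compared with Case. No member passed, and 0% of the 14573 genes tested did in edgeR, with 1880 genes at an unadjusted p under 0.05 and 202 genes called by DESeq2, none of them a member. The log2 fold change was 0.47 for Hba-a1 (SE 0.42, q = 0.653), 0.46 for Hba-a2 (SE 0.43, q = 0.678), 0.34 for Hbb-bs (SE 0.42, q = 0.763), 0.25 for Hbb-bt (SE 0.45, q = 0.842) and 0.13 for Alas2 (SE 0.46, q = 0.928). Without Case 3 they were 0.90 (q = 0.289), 0.86, 0.79, 0.73 and 0.68 (q = 0.417) in the same order, and none passed. Without Case 1, Case 2 or Dapa 12 that of Hba-a1 was 0.30, 0.29 and 0.30 and that of Hbb-bt 0.05, 0.09 and 0.09. With standard errors this large, a moderate difference in either direction was not detectable with 6 mice per group. Alas1 had the smallest unadjusted p of the members, with -0.38 (SE 0.18, unadjusted p = 0.0588 in edgeR, q = 0.397). In the 10 matching libraries alone the log2 fold changes of the globin genes were -0.01 to -0.26. The other 7 hold a lone Case mouse, Case 1, which with Case 2 was the lowest of its group in globin RNA, so their values of 2.14 to 2.60, all 4 called, set Dapa 10, 11 and 12 against that mouse.

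The ratio of the beta to the alpha chain genes varied less than their levels, and it was lower in most Dapa mice. The ratio of beta to alpha counts lay between 1.91 and 2.70 in all 17 mice, at 2.44 ± 0.189 in Ctrl, 2.36 ± 0.251 in Case and 2.11 ± 0.200 in Dapa. It was below every Ctrl mouse in 4 of 6 Dapa and 2 of 6 Case mice, and it was not among the ratios tested. Hbb-bs took 54.5% to 62.7% of the 4 globin counts of a mouse. Exact two-sided permutation tests on log2 count ratios within a library, which no library scaling can move, were run for 4 ratios in the 3 comparisons, 12 tests in all. The ratio of Hbb-bt to Hbb-bs was 0.186 ± 0.0277 in Ctrl and 0.192 ± 0.0292 in Case (exact permutation p = 0.710, q = 0.774), and 0.190 ± 0.0104 in Dapa. The ratio of Hba-a2 to Hba-a1, between 0.501 and 0.675 over all mice, differed by -0.05 on the log2 scale in Case and -0.08 in Dapa compared with Ctrl (exact permutation p = 0.489 and 0.381).

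Reads of the paired copies cannot be fully assigned. The coding sequences of Hba-a1 and Hba-a2 differ at 1 of 429 bases, and those of Hbb-bs and Hbb-bt at 1 of 444. Of the 50-base stretches of their transcripts, 72.3% of Hba-a1 also occur in Hba-a2, 89.3% of Hba-a2 in Hba-a1, 53.2% of Hbb-bs in Hbb-bt and 58.3% of Hbb-bt in Hbb-bs. The split between the copies is therefore uncertain. How reads that fit both copies were counted is not described in the sources used here. The sum of each pair, and with it the ratio of beta to alpha counts, may therefore be affected as well. No such stretch of Alas2, Alas1 or Bpgm is shared with another gene.

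Alas2 rose by more than Hbb-bs did in Case. The ratio of Alas2 to Hbb-bs counts was 0.0760 ± 0.0169 in Ctrl, 0.122 ± 0.0137 in Case and 0.108 ± 0.0155 in Dapa. In Case the log2 ratio was higher by 0.71 (exact permutation p = 0.00433, q = 0.0260), with 6 of 6 mice above every Ctrl mouse. In Dapa it was higher by 0.53 than in Ctrl with 4 of 6 mice above (exact permutation p = 0.0130, q = 0.0519), and it differed by -0.18 between Dapa and Case (exact permutation p = 0.134). The smallest p that 5 against 6 mice allow is 0.00433. The ratio of Slc25a37 to Hbb-bs was lower by 2.18 on the log2 scale in Dapa (exact permutation p = 0.00433, q = 0.0260), and the Case value of -1.65 missed the threshold (exact permutation p = 0.0216, q = 0.0649). Without Ctrl 2, 3, 4 or 5 both called differences were at q = 0.0571, at an exact permutation p of 0.00952, the smallest that 4 against 6 mice allow, so these losses say nothing of those mice. They were then 0.59 to 0.74 for Alas2 and -2.38 to -1.93 for Slc25a37. As a difference of medians neither passed, at 0.60 and -2.29 (exact permutation p = 0.0260, q = 0.0779 for both). Without Case 1 the Case difference of Slc25a37 passed (-1.91, q = 0.0476).

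**Figure D3:**
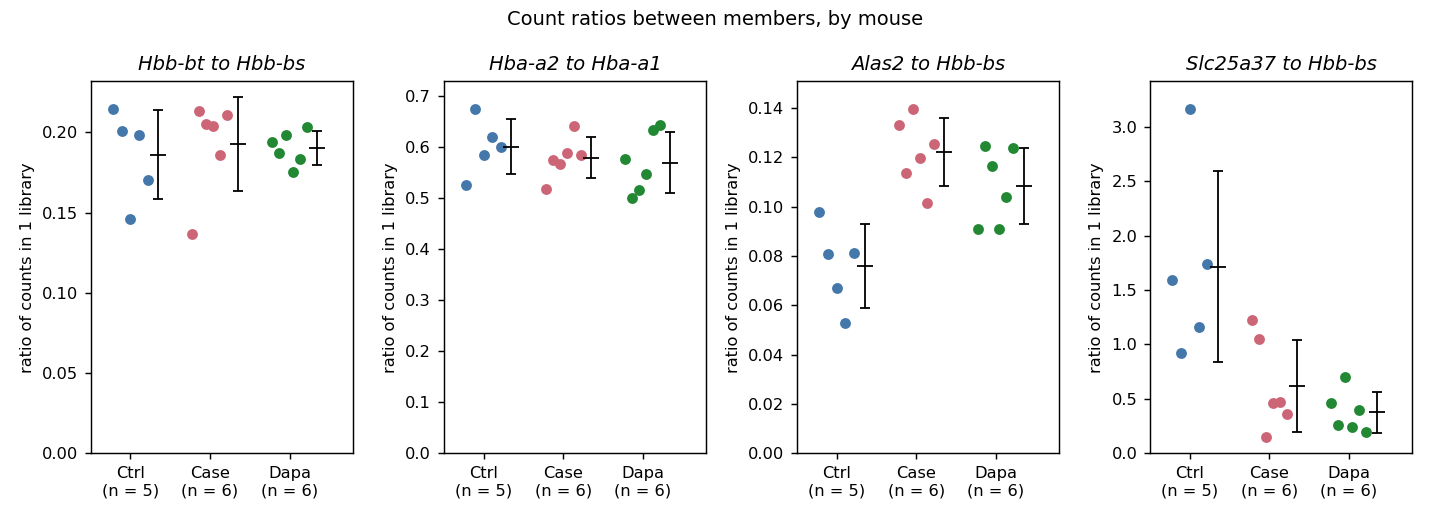
Count ratios of member pairs in every mouse by group (points are mice, black ticks are means with SD, vertical axis is the ratio of counts within a library). The ratios of the alpha pair and of the beta pair overlap in the 3 groups, whereas the ratio of Alas2 to Hbb-bs is higher in all 6 Case mice than in every Ctrl mouse.

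Within the 12 db/db mice, which share the strain, Alas2 and the globin genes went up and down together from mouse to mouse. The correlation of log2 FPKM with Hba-a1 was r = 0.992 (rho 0.979) for Hba-a2, 0.985 (rho 0.972) for Hbb-bs, 0.971 (rho 0.972) for Hbb-bt and 0.961 (rho 0.965) for Alas2. Each had a permutation p of 1e-05, the smallest that 100000 permutations can give (q = 2e-05 over 8 members). The first of these values is not one of independent measurements, since Hba-a1 and Hba-a2 share reads. Without Case 1 and Case 2, the mice farthest from the median of Hba-a1, r was 0.980, 0.969, 0.971 and 0.948. Within Case alone r was 0.967 to 0.996 and within Dapa alone 0.971 to 0.998 for these 4 genes.

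Bpgm followed Hba-a1 in the 12 db/db mice although its group means hardly differed. Its r was 0.891 (permutation p = 1e-04, q = 0.00016) and its rho 0.916 (permutation p = 8e-05). It was 0.945 within the 6 Case mice, 0.832 within the 6 Dapa mice and 0.819 without Case 1 and Case 2. The range of Bpgm in these 12 mice was 7.33 to 10.4 FPKM, small beside the 11.8 to 85.5 FPKM of Hba-a1. Alas1 had r = -0.485 (permutation p = 0.108, q = 0.144) and rho = -0.608 (permutation p = 0.0398, q = 0.0531), and r fell to -0.136 without Case 1 and Case 2, so the relation rested on those mice. For Fech r was -0.366 (permutation p = 0.240), -0.795 without Case 1 and Case 2, -0.799 within Dapa (permutation p = 0.0639) and -0.073 within Case. For Slc25a37 it was -0.151 (permutation p = 0.636).

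**Figure D4:**
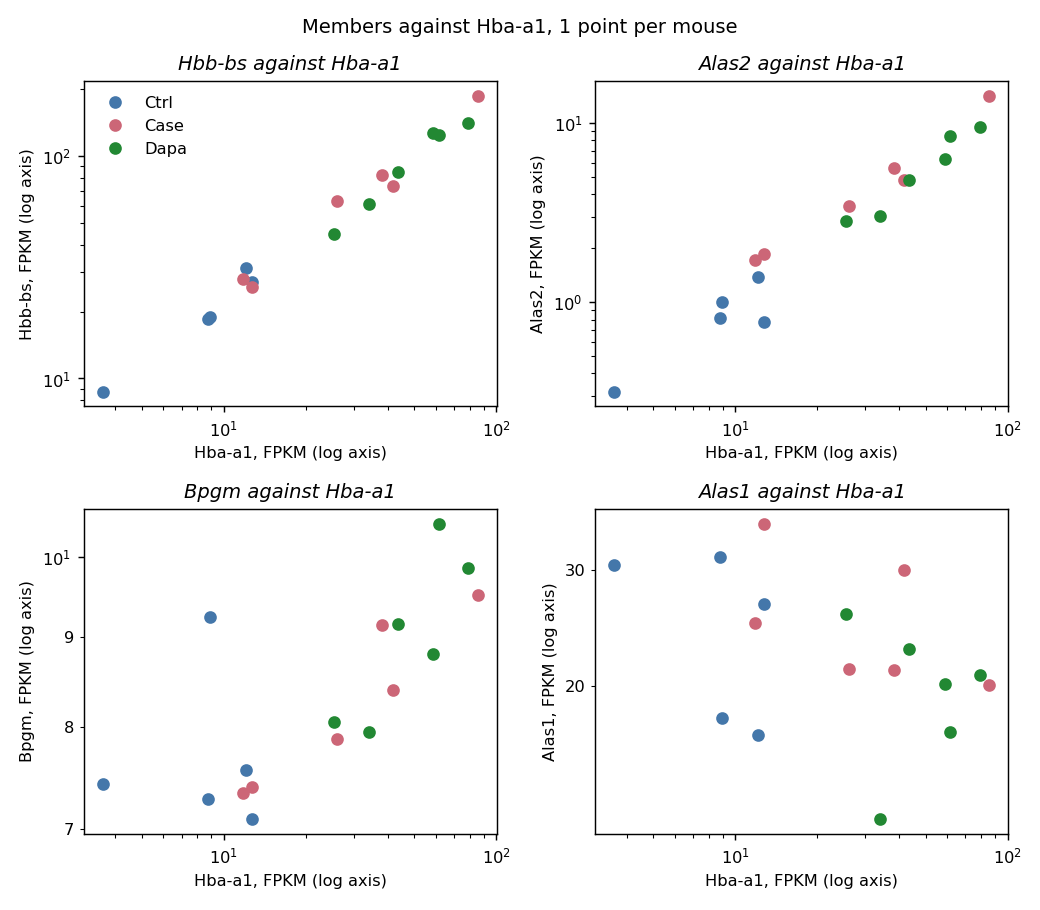
FPKM of Hbb-bs, Alas2, Bpgm and Alas1 (vertical log axes, 1 panel each) against FPKM of Hba-a1 (horizontal log axis), 1 point per mouse in the colour of its group. Hbb-bs and Alas2 follow Hba-a1 closely (r of 0.985 and 0.961 on log2 values in the 12 db/db mice), Bpgm follows it over a narrow range (r = 0.891), and the relation with Alas1 did not pass the test.

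The genes whose deviations from the group means were most like those of Hba-a1 over all 17 mice were its fellow members. Among 15060 genes, Hba-a2, Hbb-bs, Hbb-bt and Alas2 took the first 4 places, with r of 0.990, 0.985, 0.974 and 0.960. Outside the members the highest were Nfatc2 (0.881), Nos2 (0.857), Lilr4b (0.857), Gpr108 (0.839) and Mmp14 (0.825), followed by Kif1c (0.819), Ptafr (0.811), Egr1 (0.800), Rcc2 (0.797) and Slain1 (0.795). Nos2 and Ptafr had a mean count of 9.53 and 11.5 per mouse, so their values rest on few reads. Bpgm stood at place 484 with 0.543. These are descriptions over mice whose libraries differ in depth.

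The other 6 enzymes of heme synthesis did not follow the globin genes. In Case compared with Ctrl none was higher and 2 of 6 were lower, beside the 6.91% of all genes tested, at a median log2 fold change of -0.10. Cpox, coproporphyrinogen oxidase, fell from 47.8 ± 5.55 to 28.8 ± 3.89 FPKM (log2 fold change -0.81, q = 0.00158), and Uros, uroporphyrinogen synthase, fell from 3.12 ± 0.624 to 1.84 ± 0.219 FPKM (-0.84, q = 0.00200). All 6 Case mice were below every Ctrl mouse for both. In Dapa compared with Ctrl, Cpox (-0.83, q = 0.00217), Uros (-0.92, q = 0.00426) and Alad (-0.33, q = 0.0270) were among the 4 of 6 that were lower, beside 14.9% of all genes tested, and none was higher. Kidney tubule cells make heme of their own, so these levels and that of Fech are levels of the whole tissue.

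Of 6 carriers of iron and heme in the mitochondrion, 2 were lower and none higher in Case, where 6.91% of all genes tested were lower. These were Tmem14c, a porphyrin carrier needed in red cell precursors (-0.36, q = 0.00911), and Abcb10, a partner of mitoferrin-1 (-0.28, q = 0.0424). In Dapa compared with Ctrl, Abcb10 was lower (-0.51, q = 0.00187), and Slc25a28, the mitoferrin of non-erythroid cells, was higher (0.35, q = 0.0123). Of 8 tested genes of heme breakdown and transport, only Blvra, biliverdin reductase, passed in Case (-0.32, q = 0.0408), 1 of 8 beside 13.0% of all genes tested. Hmox1, the heme oxygenase induced by free heme, was the only one to pass in Dapa compared with Ctrl (-0.91, q = 0.0165), beside 29.1% of all genes tested, and its Case value was -0.52 (q = 0.0624).

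Among 9 tested genes of iron handling, Trf, the iron carrier transferrin, was higher in Case (1.33, q = 0.0210) and in Dapa (0.74, q = 0.0364) than in Ctrl, and Slc40a1, the iron exporter ferroportin, was lower in Dapa (-0.43, q = 0.0384). These are 1 of 9 in Case, beside 13.0% of all genes tested, and 2 of 9 in Dapa, beside 29.1%, so neither count is above the background. Of 5 tested genes of erythropoietin and oxygen sensing, Egln3, an oxygen-sensing prolyl hydroxylase, was higher in Case (0.56, q = 0.0200) and in Dapa (0.53, q = 0.00559). Epor, the erythropoietin receptor, was higher in Dapa compared with Ctrl (1.39, q = 0.0225), which makes 1 of 5 in Case and 2 of 5 in Dapa beside the same 13.0% and 29.1%. Its 3 high Dapa mice, Dapa 10, 11 and 12 at 4.75, 5.53 and 7.09 FPKM, are 3 of the 7 libraries, whereas Dapa 7, 8 and 9 were at 1.32 to 2.04 FPKM. Epo itself had 26 counts in Dapa 7 and at most 9 in every other mouse, too few to test. No gene of these 5 lists passed in Dapa compared with Case. Of the other globin genes, Cygb (cytoglobin) and Ngb (neuroglobin) could be tested and did not pass in any comparison.

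Whether other marks of blood and of red cell precursors moved with the globin genes was read from marker lists. Of 20 erythroid markers, 18 were in the table and 7 had enough counts to test in Case compared with Ctrl, of which 1 was higher, where 6.09% of all genes tested were, and none lower. This was Slc4a1, the anion exchanger band 3 of red cells, which intercalated cells of the kidney also make. It went from 5.30 ± 1.14 FPKM in Ctrl to 9.71 ± 2.06 in Case and 9.72 ± 2.36 in Dapa, with a log2 fold change of 0.79 (q = 0.00601) and 0.77 (q = 0.00622). In Dapa compared with Ctrl 4 of 8 tested were higher, where 14.2% of all genes tested were, with Klf1 (0.87, q = 0.0367), Sptb (0.68, q = 0.0302) and Tmcc2 (0.87, q = 0.0477) beside Slc4a1. The other tested markers did not pass. Tal1 was at -0.22 (q = 0.598), Tspan33 at 0.01 (q = 0.920) and Epb42, protein 4.2 of the red cell membrane, at -0.70 (q = 0.409) in Dapa compared with Ctrl. In Case, Epb42, with 0 to 15 counts against 8 to 21 in Ctrl, was below every Ctrl mouse in 5 of 6 mice and too low to test. Klf1 was lowest of all mice in Case 3 (27 counts), the mouse with the most globin counts. The summed level of the 18 markers was 13.4 to 18.4 FPKM in Ctrl, 19.5 to 27.4 in Case and 20.8 to 27.9 in Dapa. Without Slc4a1 the other 17 summed to 8.84 to 11.9, 9.97 to 14.7 and 11.8 to 16.7 FPKM, with 4 of 6 Case and 5 of 6 Dapa mice above every Ctrl mouse and Case 1, Case 2 and Dapa 7 within the range of Ctrl.

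Gata1, the main transcription factor of nucleated red cell precursors, had 1 count in 1 of the 17 mice.

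The markers of white cells and platelets, which arrive with blood as well, were low and uneven. The 9 neutrophil markers in the table summed to 0.158 to 2.66 FPKM in Ctrl, 0.800 to 21.4 in Case and 0.841 to 9.37 in Dapa. The highest sums were in Case 3 (21.4), Case 1 (15.0) and Dapa 8 (9.37). The 10 platelet markers summed to 0.757 to 1.39 FPKM in Ctrl, 0.868 to 3.82 in Case, highest in Case 3, and 1.63 to 2.50 in Dapa, where all 6 mice were above every Ctrl mouse. Case 3 was the highest mouse for the globin, neutrophil and platelet sums, but the sums did not go together in every mouse. Case 1, with a high neutrophil sum, had the lowest globin CPM of the Case mice (74.0). Dapa 10 and Dapa 12, at 367 and 449 globin CPM, had neutrophil sums of 0.841 and 0.849 FPKM, within the range of Ctrl. No tested marker of either list passed in any comparison (2 neutrophil and 1 or 2 platelet genes had enough counts), and S100a9 in Case was at 2.62 (q = 0.0977). The part of residual blood, of strain background and of the 7 libraries in the globin values was not tested.

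**Figure D5:**
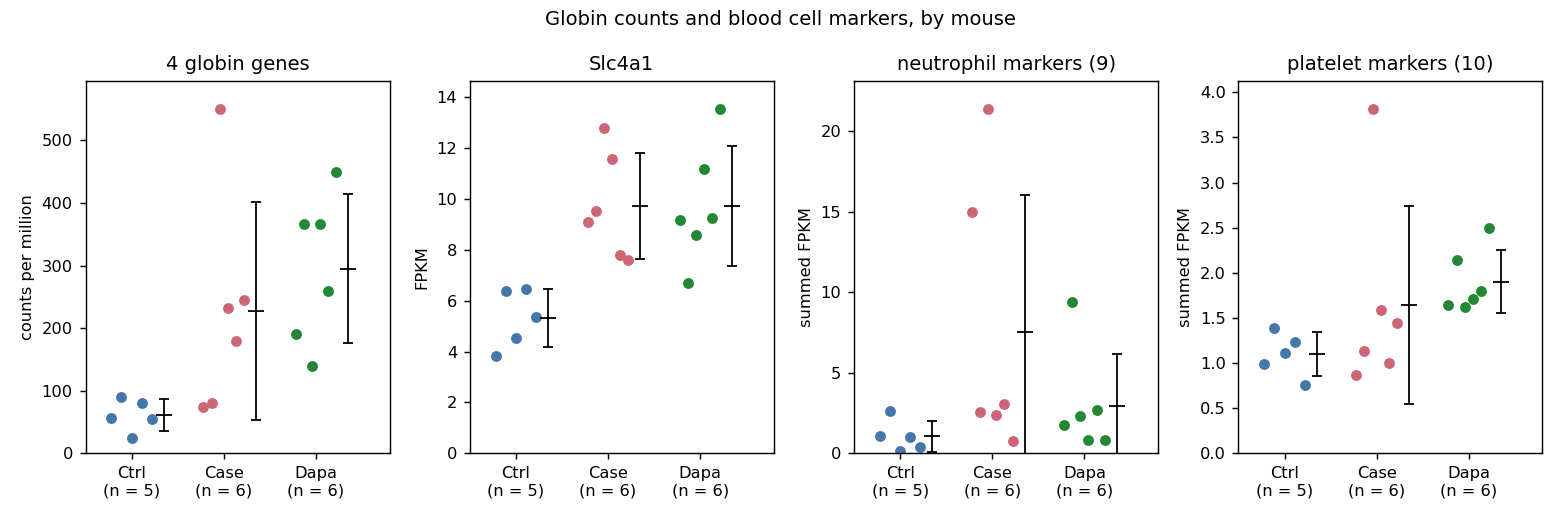
Globin CPM, FPKM of Slc4a1 and summed FPKM of 9 neutrophil and 10 platelet markers in every mouse by group (points are mice, black ticks are means with SD, cut at 0, axes start at 0). Slc4a1 is higher in all 12 db/db mice than in every Ctrl mouse, and the neutrophil sum is highest in Case 3 (21.4), Case 1 (15.0) and Dapa 8 (9.37).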

How the data were processed

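Whole-kidney mRNA was sequenced by the authors from 5 Ctrl, 6 Case and 6 Dapa mice with strand-specific libraries. As the paper describes, reads were aligned to mm10 with HISAT2 and counted per gene with Stringtie. The deposited table gives raw read counts and FPKM values for 22561 genes. The FPKM values computed by the authors followed count, library total and a gene length to within 0.00399% for genes above 20 counts, so they hold no TMM factor. That length is not always the length of 1 transcript, so levels of different genes were compared per kilobase of the longest annotated transcript. Sirt1, Tgfb1 and Bmp4, which took 2 lines each and did not match in 7 libraries, were left out, and 22558 genes remained.

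Groups were those of the labels, and nothing in the labels ties mice across groups. Counts were compared with edgeR 4.0.16 in R 4.3.3 (quasi-likelihood test after TMM scaling and the filterByExpr filter, Benjamini-Hochberg adjusted over all genes tested, called at q under 0.05), each comparison on its own 2 groups. For ratios within a library the test was an exact two-sided permutation test, and for correlations a permutation test with 100000 draws (Python 3.11.15, scipy 1.17.1, numpy 2.4.6, pandas 2.3.3). Plots were made with matplotlib 3.10.9. The alternatives were DESeq2 1.42.0, limma 3.58.1 on log2(FPKM + 1) and log2(FPKM + 0.1), other scalings, no filter, all 3 groups in one fit, a term for the 7 libraries, a replicate block, and the mice left out in turn. Fits on the 10 or the 7 libraries alone, and on replicates 1 to 5 without a block, were chosen after seeing the data. The edgeR test and the exact permutation test were also run on simulated data, and the other tests were not. Counting precision is limited for genes with few counts, and no libraries of a group were duplicates (lowest chi-square per gene 15.1).

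Named beside the members were genes of the lists that passed q under 0.05 in any comparison or had the 3 smallest p in Case compared with Ctrl, Epo, Slc4a1, and the 10 genes most like Hba-a1, although some genes that meet this rule are left unnamed. The members and lists were chosen with earlier results of these data known. Flvcr1, Flvcr2, Rhag, Ahsp, Camp and the embryonic globin genes were not analysed here. Results for some genes of the lists are not reported here.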

Additional observations from a re-analysis of the deposited data

Results flagged for a closer look

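Of 51 groups of mice tested with Dixon's criterion, 6 held a mouse that stood apart from the others, and chance alone sets a mouse apart in about 1 group in 20. Case 3 was apart for Hbb-bs, at 187 FPKM against 25.9 to 82.3 in the other Case mice, and for Alas2, at 14.2 FPKM against 1.72 to 5.60. It was also apart in the summed level of platelet markers, at 3.82 FPKM against 0.868 to 1.59. Ctrl 1 was apart for Bpgm, at 9.24 FPKM against 7.09 to 7.56 in the other Ctrl mice. Case 1 had the lowest ratio of Hbb-bt to Hbb-bs counts, at 0.136 against 0.186 to 0.213. Dapa 8 had the highest sum of neutrophil markers, at 9.37 FPKM against 0.841 to 2.67 in the other Dapa mice.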

How the results depend on the processing

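In Case compared with Ctrl, 5 members passed under DESeq2, upper quartile scaling, median ratio size factors, no filter, scaling without globin counts and all 3 groups in one fit, 4 under limma on log2(FPKM + 0.1) and 3 under limma on log2(FPKM + 1). No member passed with the term for the 7 libraries, in the 10 matching libraries or in the other 7 (0 each), and with each mouse left out 1 to 6 passed. In Dapa compared with Ctrl 5 passed, or 6 with Fech, except in the 10 matching libraries (0), and in Dapa compared with Case 0 passed except in the other 7 (4). The cause was not tested. The replicate numbers do not pair the mice (same-number correlations of -0.10 to 0.05, and none the best for its mouse). The replicate block gave 0 members and 699 genes, against 3 members and 1615 genes for the same mice without it.

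In the other 7 libraries Hbb-bt, called at 1.84 in Case compared with Ctrl, reversed to -0.10, with a lone Case mouse. The other reversals were of values that did not pass. In Case compared with Ctrl, Alas1 was at 0.010 under upper quartile scaling, 0.058 and 0.061 under the limma fits with 1 and 0.1 added, 0.078 with the term for the 7 libraries, 0.0095 with the replicate block, 0.0022 in the same mice without it and 0.41 in the 7 libraries alone. Bpgm was at -0.029 with the block, -0.035 without it and -0.19 in the 7 libraries. Slc25a37 was at 0.019 and 0.023 under the limma fits and 0.0093 in the 7 libraries. In Dapa compared with Case, Slc25a37 was at 0.015 and 0.019 under the limma fits, Fech at 0.017 with the term, and the 10 matching libraries gave -0.010 for Hba-a1, -0.16 for Hba-a2, -0.17 for Hbb-bs, -0.26 for Hbb-bt, -0.32 for Alas2, 0.14 for Fech and 0.027 for Slc25a37. In Dapa compared with Ctrl, Slc25a37 was at 0.035 and 0.042 under the limma fits.

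With each mouse left out, log2 fold changes in Case compared with Ctrl were -0.16 to 0.063 for Alas1 and -0.035 to 0.11 for Bpgm, and in Dapa compared with Case -0.061 to 0.68 for Alas2, -0.11 to 0.011 for Fech and -0.044 to 0.029 for Slc25a37. The log2 ratio of Hbb-bt to Hbb-bs differed by -0.037 to 0.14 in Case and -0.040 to 0.10 in Dapa compared with Ctrl, and by -0.10 to 0.030 in Dapa compared with Case. That of Hba-a2 to Hba-a1 differed by -0.064 to 0.0082 in Dapa compared with Case. Alas2 to Hbb-bs differed by 0.59 to 0.81 in Case and 0.41 to 0.63 in Dapa, and Slc25a37 to Hbb-bs by -1.91 to -1.29 in Case and -2.39 to -1.93 in Dapa. As a difference of medians, Hbb-bt to Hbb-bs in Dapa compared with Ctrl was -0.054, Alas2 to Hbb-bs in Case was 0.60 (exact permutation q = 0.0779) and Slc25a37 to Hbb-bs in Dapa was -2.29 (exact permutation q = 0.0779). The correlation of Bpgm with Hba-a1 within Dapa alone was 0.83 (permutation q = 0.0822). At 17 to 72 counts per Ctrl mouse, depth limits Alas2 most among the members.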
